A study of Mus musculus with 2 samples.

Results

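The vertebrate Hox clusters carry miRNA genes between their homeobox genes, and those of the miR-10 and miR-196 families were examined in the jejunal tunica muscularis with and without *Dnmt1*. The products were chosen by name as every mature entry of miR-10a, miR-10b, miR-196a or miR-196b, whichever copy or arm. This gave 7 of 1147 entries (1080 of them mature), with 4 from miR-10 and 3 from miR-196. None of the 67 entries named as hairpins carried one of these names. Of the 7, 6 were above 0 in both libraries and 4 had a mean of at least 100.

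Small RNA of 15-day-old mice was sequenced as 1 *Dnmt1*-WT and 1 *Dnmt1*-KO library, so every comparison is between those libraries and no spread between animals can be given. Both genotypes have a C57BL/6 background and share the *Cre*-eGFP transgene Tg(Myh11-cre,-EGFP)2Mik, which the *Myh11* promoter drives in smooth muscle cells (SMC) from the embryo on. In *Dnmt1*-KO, *Cre* removes the part of *Dnmt1* between lox sites, and the study describes *Dnmt1*-WT by the transgene alone. The strain label names Dnmt1lox/lox for both samples, and the description of the WT sample names Dnmt1-/-, in conflict with its genotype label of Dnmt1 WT, which was followed. The methods list males and females of each genotype without saying whether their small RNA was pooled. RNA came from the whole peeled muscle layer, and small RNA does not measure *Dnmt1* itself. Deposited totals were 5741906 for WT and 4754677 for KO, with 1 unit close to 1 read. The smooth muscle miRNA miR-143-3p was the most abundant entry in both libraries.

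miRNAs are cut from hairpin precursors, of which the 5p or the 3p arm is loaded into Argonaute and pairs with mRNAs through its seed, bases 2 to 8. Each miR-10 and miR-196 gene sits at a matching place in its Hox cluster, as a result of the ancient duplications of a single cluster, and is transcribed with its Hox neighbours along the body axis. Hox mRNAs are among the known targets of both families, with *Hoxb8* the classical target of miR-196 and *Hoxd10* one of miR-10b.

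The mature products on which the results turn are shown 5′ to 3′ with the seed in capitals, taken from RefSeq on GRCm38.p6 (the prefix mmu, for mouse, is left out elsewhere).
mmu-miR-10a-5p: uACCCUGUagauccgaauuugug
mmu-miR-10b-5p: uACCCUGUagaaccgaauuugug
mmu-miR-10a-3p: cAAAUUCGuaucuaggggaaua
mmu-miR-10b-3p: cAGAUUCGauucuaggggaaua
mmu-miR-196a-5p: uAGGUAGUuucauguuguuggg
mmu-miR-196b-5p: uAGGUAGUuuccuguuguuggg
The 5p products of miR-10a and miR-10b share their seed and differ by 1 substitution over 23 bases (U12A, with miR-10a-5p first and positions counted from the 5′ end). Likewise miR-196a-5p and miR-196b-5p share a seed and differ by 1 substitution over 22 bases (A12C, miR-196a-5p first). The 3p products of miR-10 differ at 3 of 22 positions (A3G, U9A and A10U, miR-10a-3p first) and have different seeds. Among the 918 mature entries with a RefSeq sequence, the seed of the miR-10 5p products was found in these 2 entries, and that of the miR-196 5p products in 2. Bases 2 to 7 of miR-196a-5p are found at bases 3 to 8 of let-7a-5p, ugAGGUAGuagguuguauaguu, with the shared stretch in capitals.

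The hairpins show where the arms lie within a precursor, with both mature arms in capitals. They are given because the balance of the arms differed between the libraries.
Mir10a (chr11:96317165-96317274, plus strand): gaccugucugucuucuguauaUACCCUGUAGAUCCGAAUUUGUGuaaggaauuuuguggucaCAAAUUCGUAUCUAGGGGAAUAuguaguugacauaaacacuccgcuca
Mir10b (chr2:74726070-74726137, plus strand): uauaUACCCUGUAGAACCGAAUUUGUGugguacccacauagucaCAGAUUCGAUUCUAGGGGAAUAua
On the GENCODE annotation of GRCm38, *Mir10a* overlaps no other gene and lies 993 bp before *Hoxb4*, with *Hoxb5* 11044 bp on the other side. *Mir10b* lies within introns of 1 *Hoxd3* transcript and 2 *Hoxd4* transcripts, on their strand.

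The miR-196 products come from 3 hairpins. *Mir196a-1* (chr11:96265164-96265265, plus strand) overlaps no other gene and lies 6192 bp from *Hoxb9*. *Mir196a-2* (chr15:102973350-102973434, plus strand) lies in an intron of a *Hoxc5* transcript, 1457 bp from *Hoxc10* and 3005 bp from *Hoxc9*. *Mir196b* (chr6:52230081-52230165, minus strand) overlaps exons of 2 *Hoxa9* transcripts and an intron of 1 more, and lies 1032 bp from *Hoxa10*. Both *Mir196a* genes give the same miR-196a-5p, so its reads cannot be assigned to *Hoxb* or *Hoxc*. Thus *Hoxb* holds *Mir10a* and *Mir196a-1*, *Hoxc* holds *Mir196a-2*, *Hoxd* holds *Mir10b* and *Hoxa* holds *Mir196b*.

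The 2 families differed widely in abundance. miR-10a-5p, which shares the miR-10 seed with miR-10b-5p, was the second most abundant entry in both libraries. Its share of the deposited total was 6.49% in WT (6.47 to 6.51%, the 95% interval by Wilson's method) and 7.77% in KO (7.74 to 7.79%). miR-10b-5p stood at 0.781% (0.774 to 0.788%) in WT and 2.67% (2.66 to 2.69%) in KO, and moved from rank 26 to rank 9. By contrast, miR-196a-5p stood at 0.00239% of WT and 0.00203% of KO. For each miR-196 5p read there were 2702 miR-10 5p units in WT and 3296 in KO. Intervals cover counting error only, since each genotype has 1 library. They treat each read as a separate molecule, although the reads carry no molecular identifiers and may repeat 1 molecule.

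**Figure D1:**
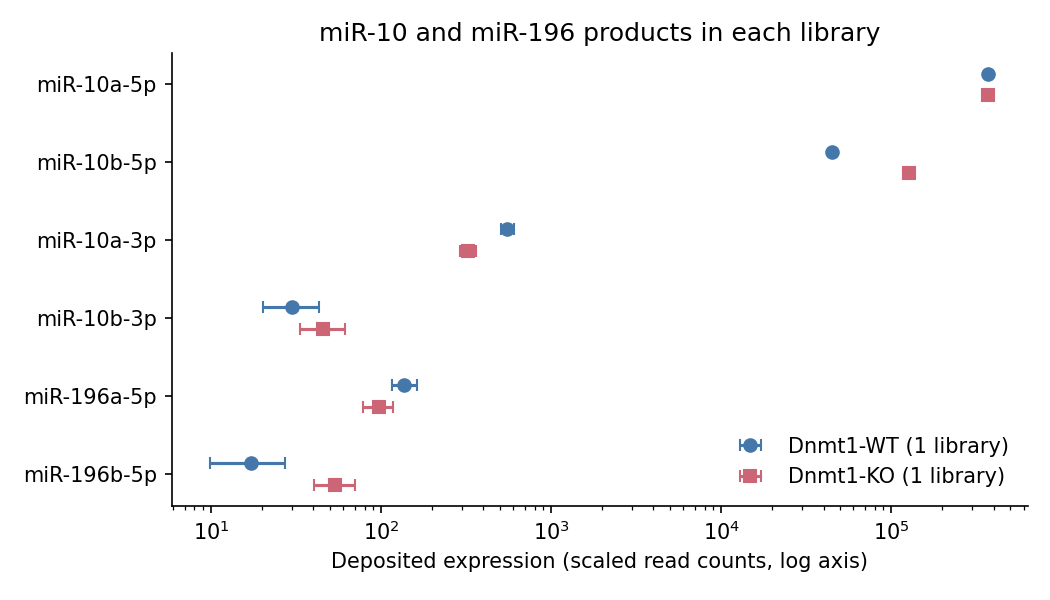
Deposited expression (scaled read counts, log axis) of 6 miR-10 and miR-196 products in the *Dnmt1*-WT library (circles) and the *Dnmt1*-KO library (squares), with 95% Poisson intervals. miR-10b-5p and miR-196b-5p lie to the right in KO, while the points of miR-10a-5p nearly coincide (miR-196a-1-3p, at 1 and 0, is not drawn).

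In *Dnmt1*-KO, miR-10b-5p was higher and miR-10a-5p nearly level. miR-10b-5p, a product of the *Hoxd* cluster studied for its part in cell migration and tumour invasion, was 44849 in WT and 127180 in KO. Its KO/WT ratio was 2.84 (95% exact binomial interval 2.81 to 2.87). miR-10a-5p, from *Hoxb*, was 372573 in WT and 369224 in KO, a ratio of 0.991 (0.987 to 0.996). The direction of miR-10a-5p rests on the scaling of the libraries, since its ratio was above 1 under the other 3 scalings tried, at 1.01 to 1.20. That of miR-10b-5p was 2.90 to 3.42 under them.

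The 2-fold threshold was reached upwards by miR-10b-5p and miR-196b-5p, 2 of 7 members (28.6%), while 26.7% of all 1147 entries reached it. Downwards it was reached, by count alone, by miR-196a-1-3p, against 23.1% of all entries. That call rests on 1 read in WT and 0 in KO, both under a floor of 3 reads, and is no measured difference. The members' share past the threshold is thus near the background, in which low entries weigh heavily. With a mean of at least 100, 1 of 4 members, miR-10b-5p, was at least 2-fold higher, as were 6.33% of the 316 entries at that level. None of the 4 was at least 2-fold lower, as were 8.86% of those entries. With equal totals, those backgrounds were 13% higher and 4.75% lower, and the members' counts were as before. At a mean of at least 10, 2 of 6 members were higher and none was lower, beside 11.4% and 9.94% of 543 entries. At 1000 or more, 1 of 2 was higher and none was lower, beside 4.41% and 7.35% of 136. Adding a pseudocount of 10 to all entries left 2 of 7 higher and 0 lower, beside 4.1% and 3.23%. Over the 6 members above 0 in both libraries, 3 were higher and 3 lower, with a median ratio of 1.23 beside 1 over all 794 such entries. As miR-10a-5p turned, 4 were higher and 2 lower under each of the other 3 scalings.

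**Figure D2:**
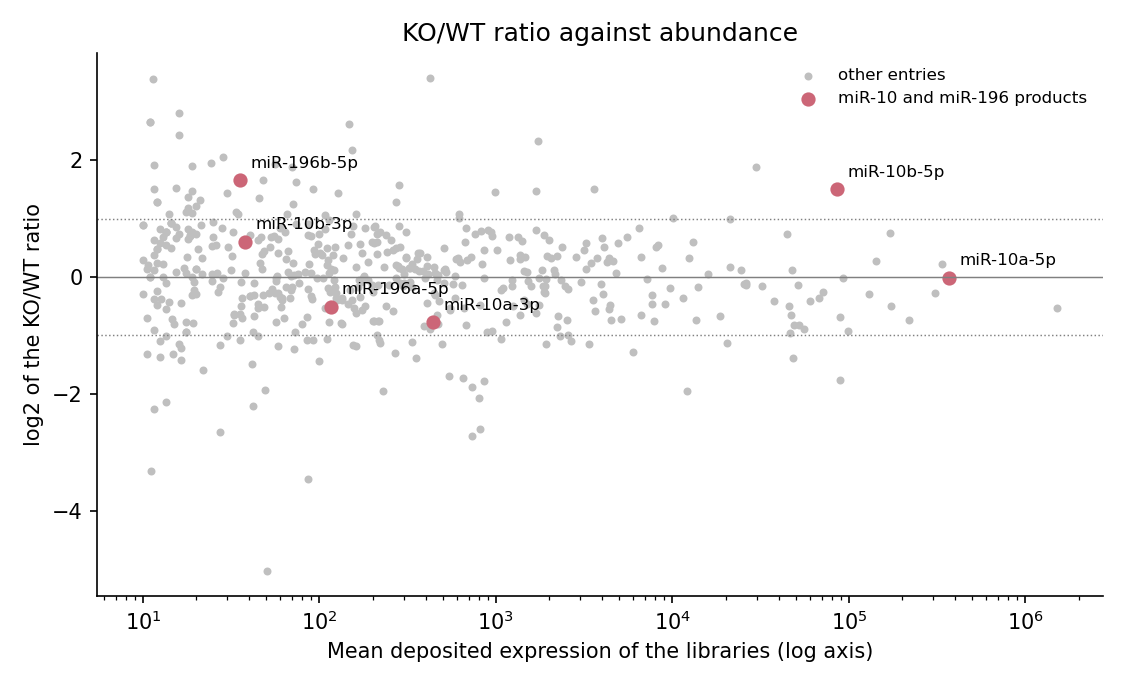
log2 of the KO/WT ratio (vertical axis) against the mean deposited expression of both libraries (log axis) for entries above 0 in both with a mean of at least 10, with the miR-10 and miR-196 products in red and dotted lines at 2-fold. miR-10b-5p, with a ratio of 2.84, ranks 24 from the top among the 531 entries drawn and 4 among the 136 that average 1000 or more. miR-10a-5p lies at -0.01 on the log2 scale.

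The total of the shared miR-10 seed was also higher in KO. miR-10a-5p and miR-10b-5p summed to 417421 in WT and 496404 in KO, a ratio of 1.19 (1.18 to 1.19), or 1.44 with equal library totals. As a share of the library, the seed made up 7.27% of WT and 10.4% of KO. Of these 3.17 percentage points, miR-10b-5p made up 1.89 and miR-10a-5p 1.28. On the deposited scale, miR-10b-5p was higher by 82331 units and miR-10a-5p was lower by 3348, whereas with equal totals miR-10a-5p was higher by 73315. For the miR-196 seed, miR-196a-5p and miR-196b-5p summed to 154.5 in WT and 150.6 in KO. Its ratio was 0.975, with an interval of 0.774 to 1.23 that holds both 1 and the ratio of the miR-10 seed, and it was 1.18 with equal totals. Relative to the miR-10 seed, the miR-196 seed in KO was 0.820 times that in WT (0.651 to 1.03), so a difference between the seeds was not detectable at this depth.

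The balance between miR-10b and miR-10a within a library does not depend on how libraries are scaled. miR-10b-5p was 10.7% of both 5p products in WT (Wilson interval 10.7 to 10.8%) and 25.6% in KO (25.5 to 25.7%). In other terms, WT held 8.31 units of miR-10a-5p for each of miR-10b-5p, whereas KO held 2.90. The ratio of miR-10b-5p to miR-10a-5p was 2.86 times as high in KO (95% conditional interval 2.83 to 2.89). The 3p products gave a separate reading of the balance of miR-10b and miR-10a. miR-10b-3p was 30.1 in WT and 45.9 in KO, and miR-10a-3p was 553.6 and 324.1. miR-10b made up 5.16% of the 3p products in WT (3.63 to 7.26%) and 12.4% in KO (9.43 to 16.1%). In each library this share was below that of the 5p products, so the arms differed in the balance itself. The ratio of miR-10b-3p to miR-10a-3p was 2.60 times as high in KO (1.57 to 4.36), an interval that holds the 2.86 of the 5p products.

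A read of the 5p products is placed in miR-10a or miR-10b by a single base, and how reads matching several miRNAs were treated is not given in the sources used here. The part of read assignment in the higher share of miR-10b in KO was not tested. The higher level of miR-10b-5p in KO, 82331 units, equals 22.3% of miR-10a-5p there.

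**Figure D3:**
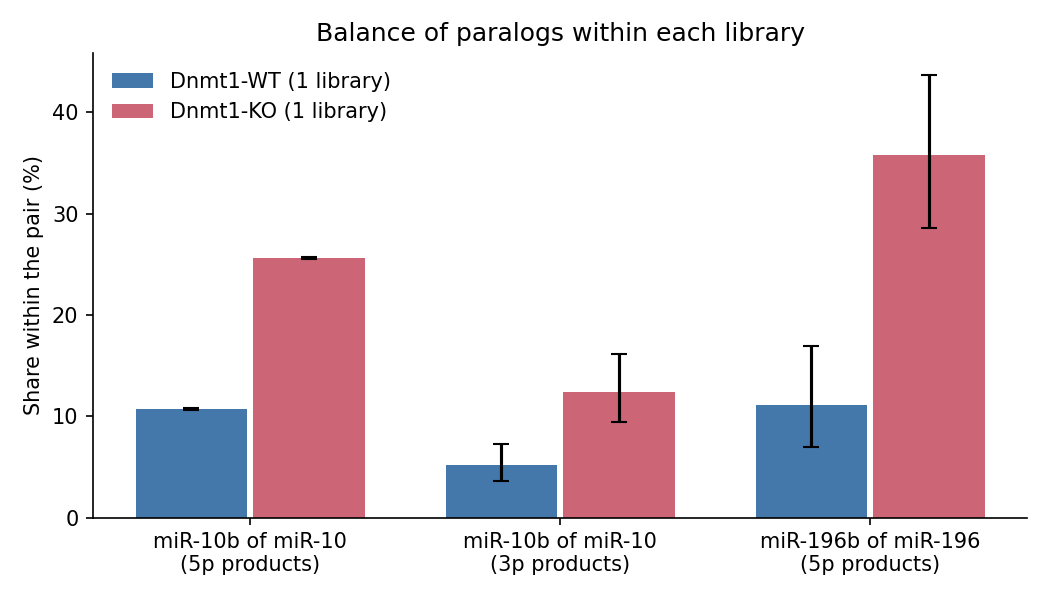
Share (%) of miR-10b within miR-10 for the 5p and the 3p products, and of miR-196b within miR-196 for the 5p products, in *Dnmt1*-WT (blue) and *Dnmt1*-KO (red), with 95% Wilson intervals. In each of the 3 pairs the KO bar is the higher one and the intervals do not overlap, at 25.6% against 10.7% for the miR-10 5p products.

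The miR-196 paralogs also stood in a different balance. miR-196b-5p, from *Hoxa*, was 17.1 in WT and 53.9 in KO, which are 17 and 54 reads, a ratio of 3.15 (1.80 to 5.81). miR-196a-5p, from *Hoxb* and *Hoxc*, was 137.4 in WT and 96.7 in KO, a ratio of 0.704 (0.537 to 0.920). With equal totals it was 0.850 (0.649 to 1.11), and without miR-143-3p in the totals 0.792 (0.605 to 1.04), so that under both scalings the interval includes 1. miR-196b-5p therefore made up 11.1% of the pair in WT (7.01 to 17.0%) and 35.8% in KO (28.6 to 43.7%). The ratio of miR-196b-5p to miR-196a-5p was 4.48 times as high in KO (2.38 to 8.74). This interval holds the 2.86 of miR-10, and a difference between the families was not detectable at this depth. As in miR-10, the paralogs are separated by a single base.

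The 3p products of miR-10, which are the rarely loaded arm, were lower in KO relative to their 5p partner in both hairpins. For miR-10a, the 3p product was 0.148% of both arms in WT (0.137 to 0.161%) and 0.0877% in KO (0.0787 to 0.0978%). For miR-10b, it was 0.0671% in WT (0.0470 to 0.0957%) and 0.0361% in KO (0.0270 to 0.0481%). The 3p to 5p ratio in KO was 0.591 times that in WT for miR-10a (0.513 to 0.679) and 0.538 times for miR-10b (0.332 to 0.882). Thus miR-10a-3p had a KO/WT ratio of 0.585 (0.509 to 0.673), although miR-10a-5p was nearly level. miR-10b-3p stood at 1.52, and its interval of 0.942 to 2.50 includes 1, unlike that with equal totals (1.84, 1.14 to 3.02).

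Across the table, 152 hairpins had both arms above 0 and a mean of at least 10 for the less abundant arm. In 77 of them (50.7%) that arm was lower relative to its partner in KO, and the median change was 0.983-fold. Changes as low as that of miR-10a or lower were found in 26 of the 152 hairpins, and as low as that of miR-10b in 21. The shift of the miR-10 arms was therefore on the lower side of the range but not apart from it. For miR-196a, 1 read of miR-196a-1-3p in WT and 0 in KO lie under the floor of 3 reads, which allows a share of up to 6.29e-05% of the KO library, and gave no ratio. The 3p products of *Mir196a-2* and *Mir196b* had no entry among those deposited, so no value is given for them.

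**Figure D4:**
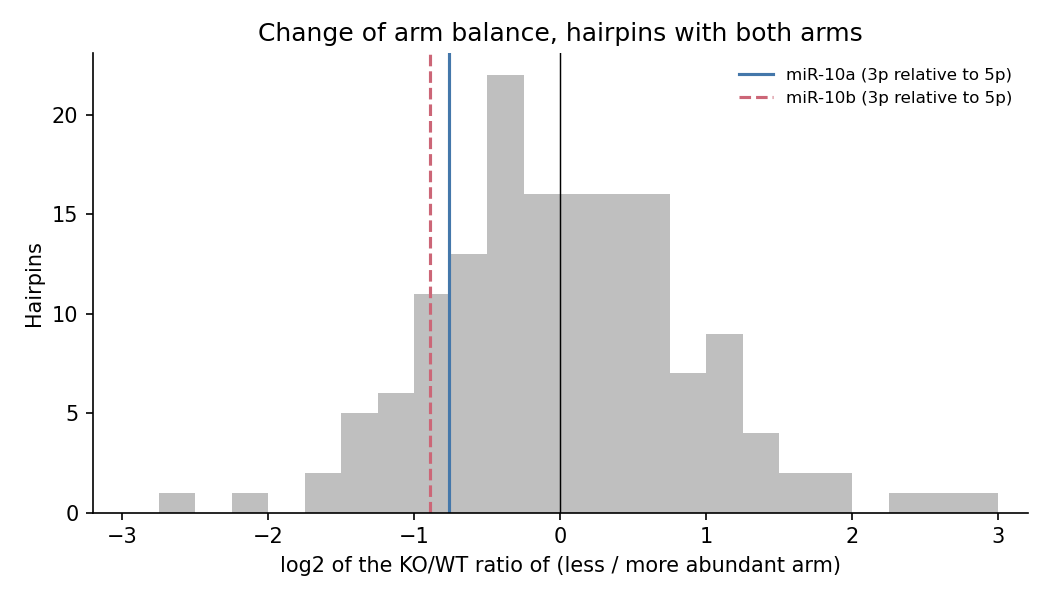
Histogram over 152 hairpins of the log2 KO/WT ratio of the less abundant to the more abundant arm, with vertical lines for miR-10a (-0.76, solid) and miR-10b (-0.89, dashed). Both lines lie left of 0, below the lower quartile of -0.51, with 26 and 21 of the 152 hairpins at or below them.

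Another miRNA gene of the Hox clusters, *Mir615* (chr15:103014910-103015001, plus strand), lies in introns of 2 *Hoxc5* transcripts. miR-615-3p was 352.0 in WT and 379.9 in KO, a ratio of 1.08 (0.931 to 1.25). miR-615-5p was 69.2 and 52.9, a ratio of 0.764 (0.524 to 1.11). Both intervals include 1 on the deposited scale, while with equal totals miR-615-3p stood at 1.30 (1.12 to 1.51).

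miR-99a, miR-99b and miR-100 are relatives of miR-10 outside the Hox clusters. Their 5p products are shown with the seed in capitals to compare with those of miR-10.
miR-99a-5p: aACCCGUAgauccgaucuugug
miR-99b-5p: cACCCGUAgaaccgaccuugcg
miR-100-5p: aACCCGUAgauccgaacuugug
Their seed differs from that of miR-10, although miR-10a-5p shares a run of 11 bases with miR-100-5p and of 10 with miR-99a-5p, starting 1 base later in miR-10a-5p. miR-99a-5p was 1554 in WT and 2423 in KO, a ratio of 1.56 (1.46 to 1.66). miR-99b-5p was 33870 and 30306, a ratio of 0.895 (0.881 to 0.909), and miR-100-5p 8465 and 6804, a ratio of 0.804 (0.778 to 0.830). The sum of the 3 was 0.901 times as high in KO on the deposited scale, beside 1.19 for the miR-10 seed. With equal totals, miR-99b-5p turned to 1.08 and the sum to 1.09. The ratio of miR-99a-5p to miR-99b-5p was 1.74 times as high in KO (1.63 to 1.86), below the 2.86 of miR-10 in these libraries. The intervals do not overlap, but they cover counting error only and not the spread between animals. The 3p to 5p ratio in KO was 0.390 times that in WT for miR-99a (0.166 to 0.874), 0.733 times for miR-99b (0.582 to 0.922) and 0.850 times for miR-100 (0.357 to 1.95), the last with an interval that includes 1.

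**Figure D5:**
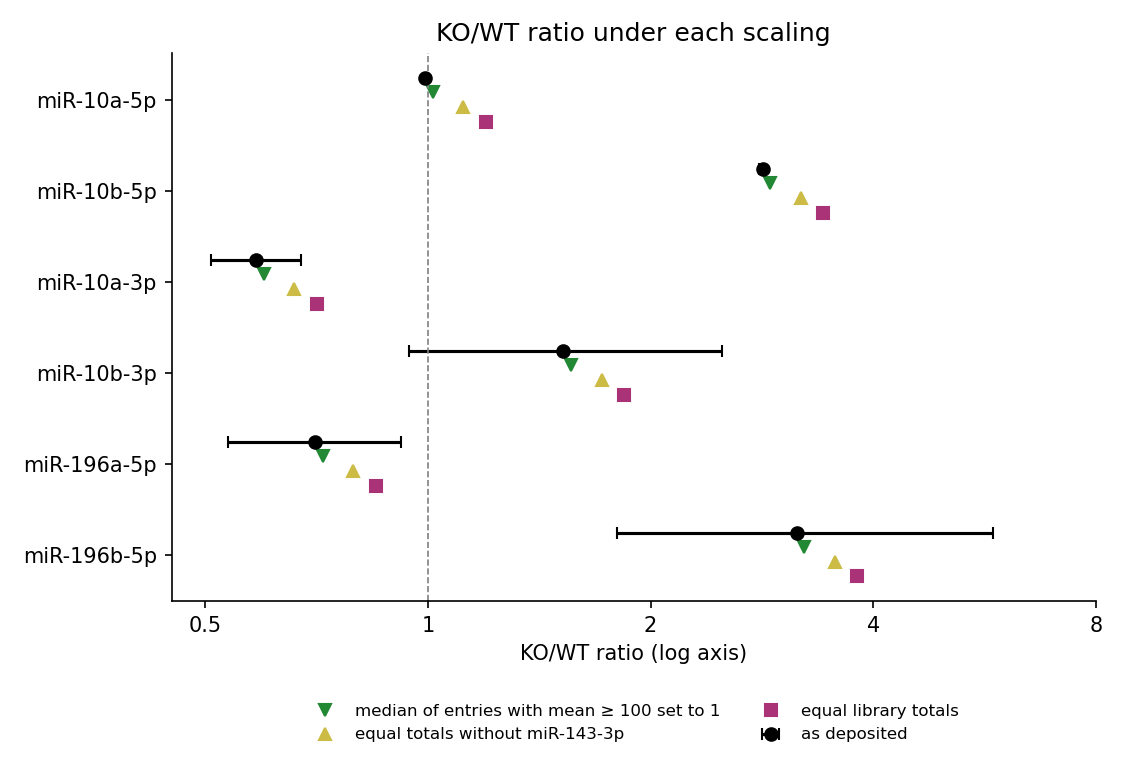
KO/WT ratio (log axis) of 6 products under the deposited scaling (circles, with 95% exact intervals) and 3 others (triangles and squares). miR-10b-5p and miR-196b-5p stay above 2 under all 4, the points of miR-10a-3p and miR-196a-5p stay below 1 (that of miR-196a-5p with an interval that includes 1 under equal totals, with or without miR-143-3p), and miR-10a-5p crosses 1.

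miRNAs that mark the cell types of the tissue differed between the libraries too, as far as small RNA shows. In bulk tissue, fewer cells of a type and less RNA per cell cannot be told apart. The 4 smooth muscle miRNAs were each lower in KO and summed to 2189741 in WT and 1438044 in KO, mostly miR-143-3p. The ratio of these sums was 0.657, or 0.793 with equal totals. The 5 leukocyte miRNAs were each higher and summed to 1676 and 4843, a ratio of 2.89 (3.49 with equal totals). The 3 red cell miRNAs were each higher, at 12735 and 47198, a ratio of 3.71 (4.48 with equal totals). Most of these sums was miR-486a-5p, which comes from the erythroid and muscle gene *Ank1*. Of the others, miR-451a was 141.4 in WT and 420.8 in KO, and miR-144-3p had 2 and 21 reads. Both endothelial products of miR-126a were higher, with sums of 10080 and 14282, a ratio of 1.42 (1.71 with equal totals). Of the 9 epithelial miRNAs 5 were higher on the deposited scale and all 9 with equal totals, with deposited sums of 14765 and 18427, a ratio of 1.25 (1.51 with equal totals). Of the 3 neural miRNAs 1 was higher on both scales, with sums of 4859 and 3454, a ratio of 0.711 (0.859 with equal totals). No marker of any list was at 0. The part of these cell types in the higher miR-10b and miR-196b levels was not tested.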

How the data were processed

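Small RNA libraries (TruSeq) of 1 *Dnmt1*-WT and 1 *Dnmt1*-KO sample were aligned and annotated by the authors' sequencing provider, with Bowtie and mm10 named in the submitters' processing notes. The database release and the scaling are not given in the sources used here. The authors deposited expression as read counts multiplied by 1 factor per library, to 1 decimal. The steps were estimated from values of 20 to 300: 87.8% of 229 WT values were whole multiples of 1.00287 and 90.3% of 248 KO values of 0.99721 (tolerance 0.051). Dividing by them gave 5725474 and 4767980 reads. A deposited column with the authors' fold change was not used.

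Ratios used the deposited values with no pseudocount. Intervals at 95% were exact binomial (ratios), Wilson (shares), conditional odds ratio (balances, R 4.3.3) and Poisson (levels), computed with SciPy 1.17.1. Of these, only the exact binomial interval was tested on simulated data, with counts drawn as Poisson, as was the estimate of the step. All intervals cover counting error only, and no p-value was computed. Gene context came from GENCODE M21, and sequences from RefSeq (GRCm38.p6).

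The members and lists were chosen with earlier results of these data known, and the study had singled out miR-10b on these libraries. Named were all members, miR-615, the miR-99/100 products, the 3 mature entries with a mean of at least 1000 nearest in ratio to miR-10b-5p and to miR-10a-5p, and lists of cell type markers. Alternatives were 3 scalings, pseudocounts of 1 and 10 and minimum means of 10 and 100. A minimum mean of 1000, and of 100 for arms, were added after the data were seen.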

Additional observations from a re-analysis of the deposited data

How the results depend on the processing

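Each scaling multiplied every KO value by 1 factor (1.21 with equal library totals), so that all ratios moved by the same fold. With equal library totals, the KO/WT ratio was 1.20 for miR-10a-5p, 3.42 for miR-10b-5p, 0.707 for miR-10a-3p and 1.44 for the summed miR-10 family (1.19 as deposited). With equal totals after leaving out miR-143-3p, miR-10a-5p was at 1.12, miR-10b-5p at 3.19 and the family at 1.34. With the median of entries with a mean of at least 100 set to 1, they were at 1.01, 2.90 and 1.22. Thus miR-10a-5p turned direction under these 3 scalings, and miR-99b-5p under the first 2, at 1.08 and 1.01. The count of members at least 2-fold higher went from 2 to 1 with a minimum mean of 100 or 1000, and that of members at least 2-fold lower from 1 to 0 with a minimum mean of 10, 100 or 1000 or a pseudocount of 10. These alternatives leave out or shrink low entries by construction. The miR-10b to miR-10a ratio by 3p products, 2.60 times as high in KO, kept its direction. The planned sum with hairpin entries could not be run, as the table lists none of these names, and with 1 library per genotype none could be left out. No paired analysis was possible because each genotype has 1 library. Depth limits the rarer products: 17 and 54 reads stand behind miR-196b-5p, and 30 and 46 behind miR-10b-3p.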

Other observations

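Among the 135 other mature entries with a mean of at least 1000, those nearest to miR-10b-5p in KO/WT ratio were miR-146b-5p at 2.85, miR-214-3p at 2.78 and miR-486a-5p at 3.71. miR-146b is known as a product of inflammatory signalling, miR-214 comes from the mesenchymal transcript *Dnm3os*, and miR-486a from the erythroid and muscle gene *Ank1*. miR-146b-5p was 1864 in WT and 5307 in KO, miR-214-3p 896.5 and 2489, and miR-486a-5p 12592 and 46756. All 3 lay below miR-10b-5p in both libraries.

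Those nearest to miR-10a-5p were let-7f-5p at 0.986, miR-433-3p at 0.984 and miR-215-5p at 0.977. let-7f-5p, a member of the let-7 family that rises as cells differentiate, was 93364 in WT and 92065 in KO. miR-433-3p, from the imprinted Dlk1-Dio3 region, was 1768 and 1740, and miR-215-5p, a miRNA of the intestinal epithelium, 7261 and 7093. Likeness here is that of a single ratio between 2 libraries.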
